A study of Mus musculus with 9 samples.

Results

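Proximal tubular cells sorted from the kidneys of *db/db* mice that received dapagliflozin (*db/db*-dapa) were compared with those of untreated *db/db* mice, 3 mice against 3, to see which genes and functions differ with the drug. These are 6 of the 9 mice of the series, chosen by their labels. Of the 24421 genes listed, 15583 reached 0.3 CPM (counts scaled to the size of the library) in at least 2 of the 9 mice and were tested. The remaining 3 mice were nondiabetic *db/m* controls, whose levels are given alongside as a description. A *db/db* mouse is homozygous for a mutation of the leptin receptor gene and becomes obese and diabetic, whereas *db/m* mice are heterozygous. All 9 carried a CreERT2 cassette in the Slc34a1 locus together with the R26tdTomato reporter, and all received tamoxifen (3 mg, 5 injections) at the age of 8 weeks. Dapagliflozin was supplied in drinking water at 1.5 mg/kg/day for 8 weeks. The labels name the strain as C57BL/6 and the tissue as kidney, and the methods describe living tdTomato-positive cells collected by flow cytometry from minced cortex. The *db/db* mice called untreated received vehicle in the same way. The reporter marks cells that expressed Slc34a1 when tamoxifen was given, which limits the model to that part of the nephron. Each library came from a separate animal.

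Dapagliflozin inhibits SGLT2, encoded by Slc5a2, which takes up most of the filtered glucose in the early part of the proximal tubule. The cells of this tubule also recover amino acids, phosphate, bicarbonate and filtered proteins, secrete organic anions and cations, and make glucose. They keep up a large synthesis of membrane proteins, for which chaperones of the cytosol and of the endoplasmic reticulum are needed, and in male mice the late S3 segment carries many genes that respond to androgens.

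Before any difference is read, the sort and the libraries were checked. Slc34a1, which encodes the sodium-phosphate transporter whose locus drives Cre, was at 4554, 4631 and 4464 CPM in *db/db*-dapa and 6196, 4404 and 4732 CPM in *db/db* mice. Slc5a2 was at 1309.7, 1249.9 and 817 CPM in *db/db*-dapa and 2124, 1098 and 759.7 CPM in *db/db* mice. For these genes the ranges of the groups overlapped, and the highest value of each belonged to *db/db* replicate 1. The endocytic receptor genes Lrp2 (2531, 3719.6 and 4974 CPM in *db/db*-dapa and 2182, 1646 and 5282 CPM in *db/db* mice) and Cubn (579, 831 and 1151 CPM in *db/db*-dapa and 472, 485 and 1155 CPM in *db/db* mice) were highest in replicate 3 of each group. Lepr, the mutated receptor gene, was at or below 0.568 CPM in these 6 mice. Among 20 markers of the S1 and S2 segments, 14 had a higher fitted level in *db/db*-dapa mice and 6 a lower one, with a median log2 fold change of 0.14 (leaving a mouse out, lowest at 0.043 without *db/db* replicate 2 and highest at 0.23 without *db/db*-dapa replicate 1) against -0.0093 over all genes tested. Among 11 markers of the S3 segment the counts were 8 and 3, with a median of 0.54 (leaving a mouse out, lowest at 0.14 without *db/db* replicate 1 and highest at 1.21 without *db/db* replicate 3). Summed, the S3 markers came to 4775, 4251 and 5875 CPM in *db/db*-dapa and 1865, 3951 and 5818 CPM in *db/db* mice. Only *db/db* replicate 1 lay well below the others. At an unadjusted p under 0.05, 0 of the 11 S3 genes were higher with all mice and 7 without *db/db* replicate 3. Of all genes tested, 1.92% were higher at this p with all mice and 11.3% without that mouse. Transcripts of the Y-linked gene Ddx3y were present at 69.8 CPM or more, and Xist at 0.68 CPM or less, in each of the 6 mice.

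The libraries differed in depth between the groups. The estimated counts summed to 6981183, 7626047 and 9033062 in *db/db*-dapa mice and to 2733314, 4951030 and 7635630 in *db/db* mice, replicates 1 to 3. A value of 3 counts corresponded to 1.02 CPM in *db/db* replicate 1 and to 0.339 CPM in *db/db*-dapa replicate 3. Over the log2(CPM + 1) values of all tested genes, *db/db* replicate 3 had correlations of 0.955 and 0.964 with the other *db/db* mice. It had correlations of 0.975, 0.989 and 0.991 with *db/db*-dapa replicates 1, 2 and 3. The correlations of *db/db*-dapa replicate 1 were 0.982 and 0.977 with the other *db/db*-dapa mice and 0.971, 0.981 and 0.975 with *db/db* replicates 1 to 3. These are correlations across genes, which are not independent replicates. The library labelled *db/db* replicate 3 therefore stood apart from its group, and counts are given below without it as well. Why it stood apart was not tested, and each comparison below rests on the label as given. The part of depth in the differences below was not tested.

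With all 9 mice in a single fit, 0 of the 15583 genes (0%) passed an adjusted p under 0.1 together with an absolute log2 fold change over 1. By edgeR's quasi-likelihood test, adjusted by Benjamini-Hochberg, the lowest adjusted p was 0.854. Each of the 809 genes (5.19%) with an unadjusted p under 0.05 had this same adjusted p. Of them, 299 (1.92% of those tested) were higher in *db/db*-dapa mice and 510 (3.27%) lower. Scaling to library totals gave 182 higher and 702 lower. Of other tools, DESeq2 called 13, edgeR's likelihood ratio test and exact test called 6 each, limma on log2(CPM + 1) called 0, and limma with a quality weight for each mouse called 449, 108 higher and 341 lower. Without *db/db* replicate 3 the quasi-likelihood test called 272 genes, 168 higher and 104 lower. That mouse was singled out because it resembled *db/db*-dapa mice, so larger differences without it are built in, and this count is not a test of the drug. Without *db/db*-dapa replicate 2 it called 1. The share of all genes at an unadjusted p under 0.05 also depended on the mouse left out. For higher genes it was 1.16%, 1.33% and 11.3% without *db/db* replicates 1, 2 and 3, and 1.88%, 1.07% and 1.27% without *db/db*-dapa replicates 1, 2 and 3. For lower genes it was 1.29%, 2.65% and 9.08% without *db/db* replicates 1, 2 and 3, and 4.89%, 1.3% and 1.42% without *db/db*-dapa replicates 1, 2 and 3. List counts below from such fits are to be read against these shares. In 763 genes (4.9%) each *db/db*-dapa mouse was above each *db/db* mouse, and in 824 genes (5.29%) each was below. An exact permutation test of 3 against 3 mice cannot give a p under 0.1. The genes described below are therefore given as levels in each mouse, as the fitted log2 fold change with its standard error, or as both. The smallest fold change is added where leaving out a mouse made it over 1.5 times smaller. Some of these genes were named only if the groups did not overlap, so their lack of overlap was set by that choice. None of the genes is called, and where a fold change is given the adjusted p is 0.854 (edgeR's quasi-likelihood test) unless another is printed.

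The HSP90, HSP70 and HSP40 families fold and hold proteins of the cytosol. In this list, 23 of 25 tested genes were higher in *db/db*-dapa mice and 2 lower. The median log2 fold change was 0.34, against -0.0093 over all genes. An unadjusted p under 0.05 was reached by 8 members, all higher, and 11 members had no overlap with *db/db*-dapa mice above, against 1.92% and 4.9% of all genes tested. Hsp90aa1, the inducible HSP90 of the cytosol, was at 2319, 1684 and 1734 CPM in *db/db*-dapa and 703, 879 and 1061 CPM in *db/db* mice. Its constitutive partner Hsp90ab1 was at 2473, 1879 and 1643 CPM in *db/db*-dapa and 1250.5, 1172 and 1072 CPM in *db/db* mice. In both genes the lowest *db/db*-dapa mouse lay above the highest *db/db* mouse, and *db/db*-dapa replicate 1 was the highest of the 6. For Hsp90aa1 the log2 fold change was 1.12 ± 0.23, and for Hsp90ab1 0.78 ± 0.19. The *db/m* mice, at 1953, 1855 and 1341 CPM for Hsp90aa1 and 2501, 2337 and 2029 for Hsp90ab1, lay above the *db/db* mice.

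The HSP40 proteins deliver clients to HSP70 and speed its ATP cycle. Dnajb1 was at 279, 119 and 189 CPM in *db/db*-dapa and 118, 101 and 98.0 CPM in *db/db* mice. Dnaja1 was at 952, 641 and 689.9 CPM in *db/db*-dapa and 470.4, 529 and 427 CPM in *db/db* mice. The values of *db/db*-dapa replicate 2 were the nearest to those of *db/db* mice, and there was no overlap. Dnaja4 was at 52.5, 32.7 and 34.2 CPM in *db/db*-dapa and 29.9, 26.0 and 18.6 CPM in *db/db* mice, also without overlap. The log2 fold changes were 0.89 ± 0.26 (0.56 without *db/db*-dapa replicate 1) for Dnajb1, 0.68 ± 0.20 for Dnaja1 and 0.70 ± 0.24 (0.45 without *db/db*-dapa replicate 1) for Dnaja4. Among HSP70 genes, the inducible Hspa1b was at 1825, 598 and 1061 CPM in *db/db*-dapa and 852, 512 and 349.5 CPM in *db/db* mice. Here the groups overlapped, since *db/db*-dapa replicate 2 was below *db/db* replicate 1. Hspa1b has a near-identical copy, Hspa1a, between which reads may have been divided, so its level is uncertain. For Hspa8, the constitutive HSP70, the groups overlapped as well (4196, 3087 and 3423 CPM in *db/db*-dapa and 2924, 3252 and 2308 CPM in *db/db* mice). The nucleotide exchange factors Hsph1 (584, 314 and 358 CPM in *db/db*-dapa and 307, 292 and 177 CPM in *db/db* mice) and Hspa4l (29.1, 44.4 and 33.0 CPM in *db/db*-dapa and 22.4, 19.8 and 26.1 CPM in *db/db* mice) did not overlap. Log2 fold changes were 1.03 ± 0.40 (0.55 without *db/db*-dapa replicate 1) for Hspa1b, 0.70 ± 0.28 (0.39 without *db/db*-dapa replicate 1) for Hsph1 and 0.63 ± 0.23 for Hspa4l. Dnajc7, a co-chaperone that binds both HSP70 and HSP90, went the other way, at 84.0, 84.2 and 81.4 CPM in *db/db*-dapa and 119, 108 and 88.3 CPM in *db/db* mice. In fits that each lacked a mouse, the number of members higher at an unadjusted p under 0.05 was 9, 6 and 11 without *db/db* replicates 1, 2 and 3, and 6, 8 and 8 without *db/db*-dapa replicates 1, 2 and 3. The 11 without *db/db* replicate 3 stand beside 11.3% of all genes in that fit. The median of the list was above 0 in each of these fits, between 0.25 and 0.50.

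**Figure D1:**
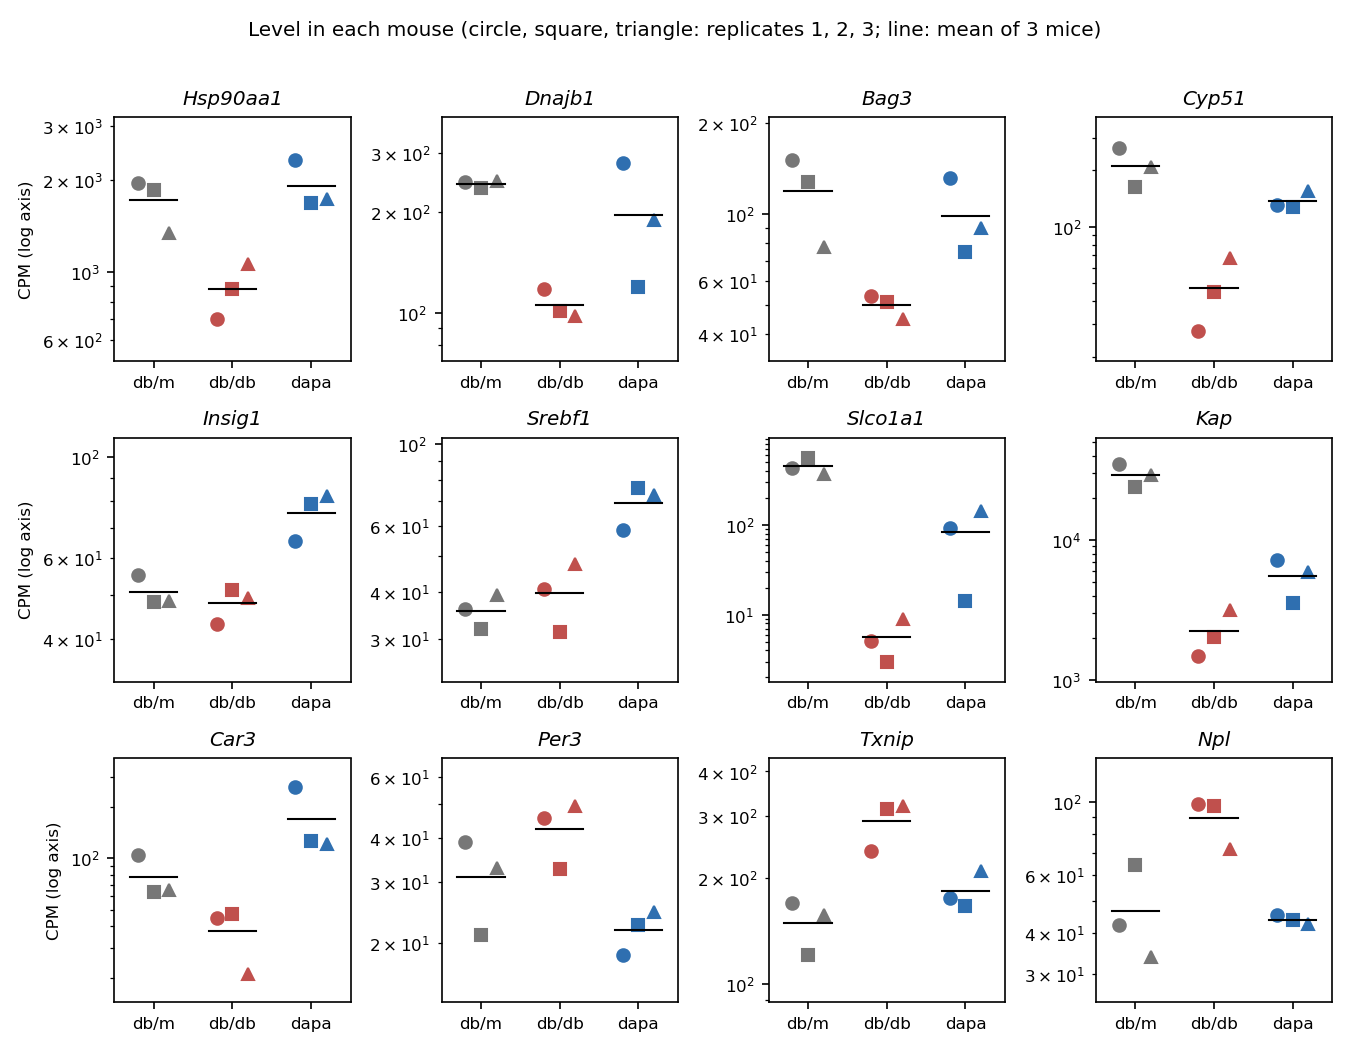
Level of 12 genes in each of the 9 mice, in CPM on a log axis, by group (treated mice marked dapa), with symbols for replicates 1, 2 and 3 and a line at the mean of 3 mice. In each panel the *db/db*-dapa mice lie on a single side of the *db/db* mice, for example between 1684 and 2319 CPM against 703 to 1061 CPM for Hsp90aa1.

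HSP90 works with co-chaperones, some of which heat shock factors also induce. Of 20 tested co-chaperones and heat shock factors, 12 were higher and 8 lower, and the median was 0.05. Scaling to library totals made the median -0.012, against -0.073 over all genes in that fit. Without *db/db* replicate 3 it was -0.048, against 0.0083 over all genes, so the list as a whole had no stable direction. An unadjusted p under 0.05 was found in 4, all higher, beside 1.92% of all genes, and in 1 under scaling to library totals, beside 1.17%. The number of such higher genes was 4, 2 and 3 without *db/db* replicates 1, 2 and 3, and 3, 1 and 4 without *db/db*-dapa replicates 1, 2 and 3. Bag3, an exchange factor that links HSP70 to selective autophagy, was at 131.2, 74.8 and 90.2 CPM in *db/db*-dapa and 53.7, 51.0 and 45.0 CPM in *db/db* mice. Chordc1 was at 60.2, 65.9 and 64.9 CPM in *db/db*-dapa and 52.0, 44.6 and 42.2 CPM in *db/db* mice. These genes did not overlap, and their log2 fold changes were 0.99 ± 0.27 for Bag3 and 0.47 ± 0.17 for Chordc1. Stip1, which passes clients from HSP70 to HSP90, was at 145, 134 and 93.0 CPM in *db/db*-dapa and 105, 83.6 and 67.5 CPM in *db/db* mice. Cacybp was at 72.1, 58.2 and 45.0 CPM in *db/db*-dapa and 47.9, 45.4 and 30.8 CPM in *db/db* mice. In both, *db/db*-dapa replicate 3 fell within the range of *db/db* mice. Fkbp5, an HSP90-bound immunophilin that glucocorticoids induce, was at 93.8, 67.1 and 94.0 CPM in *db/db*-dapa and 133, 102 and 188 CPM in *db/db* mice, with each *db/db*-dapa mouse below each *db/db* mouse. For Stip1 the log2 fold change was 0.54 ± 0.23, for Cacybp 0.51 ± 0.22 (0.34 without *db/db*-dapa replicate 1) and for Fkbp5 -0.73 ± 0.37 (-0.45 without *db/db* replicate 3).

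All 8 subunits of the TRiC chaperonin, the ring complex that folds actin and tubulin, were higher in *db/db*-dapa mice, by a median of 0.14 (leaving a mouse out, lowest at 0.074 without *db/db* replicate 3 and highest at 0.22 without *db/db*-dapa replicate 3). Scaled to library totals, 6 of the 8 were higher. None had an unadjusted p under 0.05. The subunit with the largest difference was Cct5, at 203, 198 and 167 CPM in *db/db*-dapa and 149, 151 and 147 CPM in *db/db* mice. Tcp1 was at 207, 204 and 200.2 CPM in *db/db*-dapa and 165, 180.9 and 177 CPM in *db/db* mice. In Cct5, Tcp1 and Cct6a (202, 198 and 202 CPM in *db/db*-dapa and 166, 162 and 187 CPM in *db/db* mice) the groups did not overlap. The mitochondrial chaperonin Hspd1 was at 985, 890.4 and 897 CPM in *db/db*-dapa and 563, 735 and 658 CPM in *db/db* mice, again without overlap, with a log2 fold change of 0.50 ± 0.18. Its partner Hspe1 overlapped (396, 242 and 243 CPM in *db/db*-dapa and 254, 313 and 150.4 CPM in *db/db* mice). Of 9 small heat shock and mitochondrial chaperonin genes, 6 were higher, with a median of 0.15 (leaving a mouse out, lowest at -0.25 without *db/db*-dapa replicate 1 and highest at 0.43 without *db/db*-dapa replicate 3). Hspb1 was at 37.6, 9.45 and 14.3 CPM in *db/db*-dapa and 56.1, 18.0 and 4.17 CPM in *db/db* mice, and Cryab was at 55.1, 25.5 and 17.1 CPM in *db/db*-dapa and 45.2, 27.6 and 16.9 CPM in *db/db* mice. In both of these genes the groups overlapped, and replicate 1 of each group was its highest mouse.

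Promoters of chaperone genes were searched for the 2 parts of the heat shock element, written GAANNTTC and TTCNNGAA. Each reads the same on both strands, and the pair can overlap by 3 bases. The windows were 300 bases long, 250 before and 50 after the start, from RefSeq on GRCm38.p6. A gene can have several windows, and it counts where any of them has a match. By gene, a match was found in 7 of 20 of the HSP90, HSP70 and HSP40 list found by symbol, in 5 of 17 of the co-chaperone list, in 3 of 7 of TRiC and in 5 of 7 of the small heat shock and chaperonin list, against 14.5% of tested genes. By window, the counts were 9 of 32, 5 of 17, 3 of 9 and 5 of 9, against 15.1% of all 32851 windows. Hspd1 and Hspe1 lie in opposite directions and share the same matches. Hsp90aa1 and Hsp90ab1 had no window under these symbols and were not searched. Dnajb1, Hspa4l, Stip1 and Cacybp, which also had an unadjusted p under 0.05, had no match. The stretches below are shown as examples of genes with such a p and a match, in capitals, and a match is a description of letters only.
Chordc1, chr9:18292217-18292316, plus strand: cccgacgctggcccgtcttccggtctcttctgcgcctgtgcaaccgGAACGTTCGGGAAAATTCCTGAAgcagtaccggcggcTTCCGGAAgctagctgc
Hsph1, chr5:149636287-149636386, minus strand: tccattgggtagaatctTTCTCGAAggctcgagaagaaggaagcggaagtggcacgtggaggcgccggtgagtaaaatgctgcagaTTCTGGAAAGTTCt
Dnaja4, chr9:54699449-54699548, plus strand: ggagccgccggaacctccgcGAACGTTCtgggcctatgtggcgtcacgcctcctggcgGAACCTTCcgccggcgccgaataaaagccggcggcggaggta
Dnaja1, chr4:40722298-40722397, plus strand: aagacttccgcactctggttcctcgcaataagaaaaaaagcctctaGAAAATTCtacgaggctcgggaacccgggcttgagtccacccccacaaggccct
Bag3, chr7:128523553-128523632, plus strand: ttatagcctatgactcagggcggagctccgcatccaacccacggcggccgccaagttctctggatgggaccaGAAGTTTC
Hspd1, chr1:55088003-55088102, minus strand: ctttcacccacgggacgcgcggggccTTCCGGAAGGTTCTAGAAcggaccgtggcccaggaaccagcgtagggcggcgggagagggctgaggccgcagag
In Chordc1 the window held 5 matches, 4 of which overlap in a chain, and in Hspd1 3 matches overlap.

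Folding in the endoplasmic reticulum (ER) is watched by the unfolded protein response. Of 35 genes of this response and of ER quality control, 28 were higher in *db/db*-dapa mice, with a median of 0.23. Members with an unadjusted p under 0.05 were Sdf2l1, Sel1l and Dnajc3, and the number of such higher members was 2, 0 and 8 without *db/db* replicates 1, 2 and 3, and 2, 0 and 4 without *db/db*-dapa replicates 1, 2 and 3. Beside the 3 of 35 in the fit of all mice stand 1.92% of all genes, with 1 of 35 under scaling to library totals, and beside the 8 without *db/db* replicate 3 stand 11.3%. Without that mouse 21 of 35 were higher, against 28 with it. Sdf2l1, a BiP cofactor, was at 11.9, 29.9 and 4.30 CPM in *db/db*-dapa and 9.18, 4.20 and 3.41 CPM in *db/db* mice. The highest value was that of *db/db*-dapa replicate 2, and replicate 3 lay inside the *db/db* range. Sel1l, an adaptor of ER-associated degradation, was at 120.1, 174 and 148 CPM in *db/db*-dapa and 67.3, 87.8 and 133 CPM in *db/db* mice. Dnajc3, an ER-resident HSP40 protein, was at 163, 191 and 147 CPM in *db/db*-dapa and 93.8, 112 and 154 CPM in *db/db* mice. Both overlapped through *db/db* replicate 3. The log2 fold changes were 1.53 ± 0.64 (0.60 without *db/db*-dapa replicate 2) for Sdf2l1, 0.61 ± 0.26 for Sel1l and 0.47 ± 0.21 for Dnajc3. Hspa5, which encodes BiP, overlapped (1339, 1339 and 892 CPM in *db/db*-dapa and 969, 1570.4 and 696 CPM in *db/db* mice), as did Calr (1107, 945 and 648 CPM in *db/db*-dapa and 935, 951 and 774 CPM in *db/db* mice). Canx (586, 552 and 526 CPM in *db/db*-dapa and 455, 348 and 499.8 CPM in *db/db* mice) and the sensor kinase gene Eif2ak3 (49.0, 73.7 and 56.1 CPM in *db/db*-dapa and 33.3, 40.6 and 47.1 CPM in *db/db* mice) did not. Among 31 proteasome subunits, 19 were higher and 12 lower, with a median of 0.014, which scaling to library totals turned to -0.046. Under that scaling the median of all genes was -0.073. The direction of this list depended on the mouse left out, with a median of 0.13 and 29 of 31 higher without *db/db* replicate 2, and -0.034 without replicate 3. Psmd7, a subunit of the lid, was at 97.5, 96.1 and 80.8 CPM in *db/db*-dapa and 52.7, 65.4 and 79.8 CPM in *db/db* mice, with a log2 fold change of 0.46 ± 0.18 and no overlap.

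**Figure D2:**
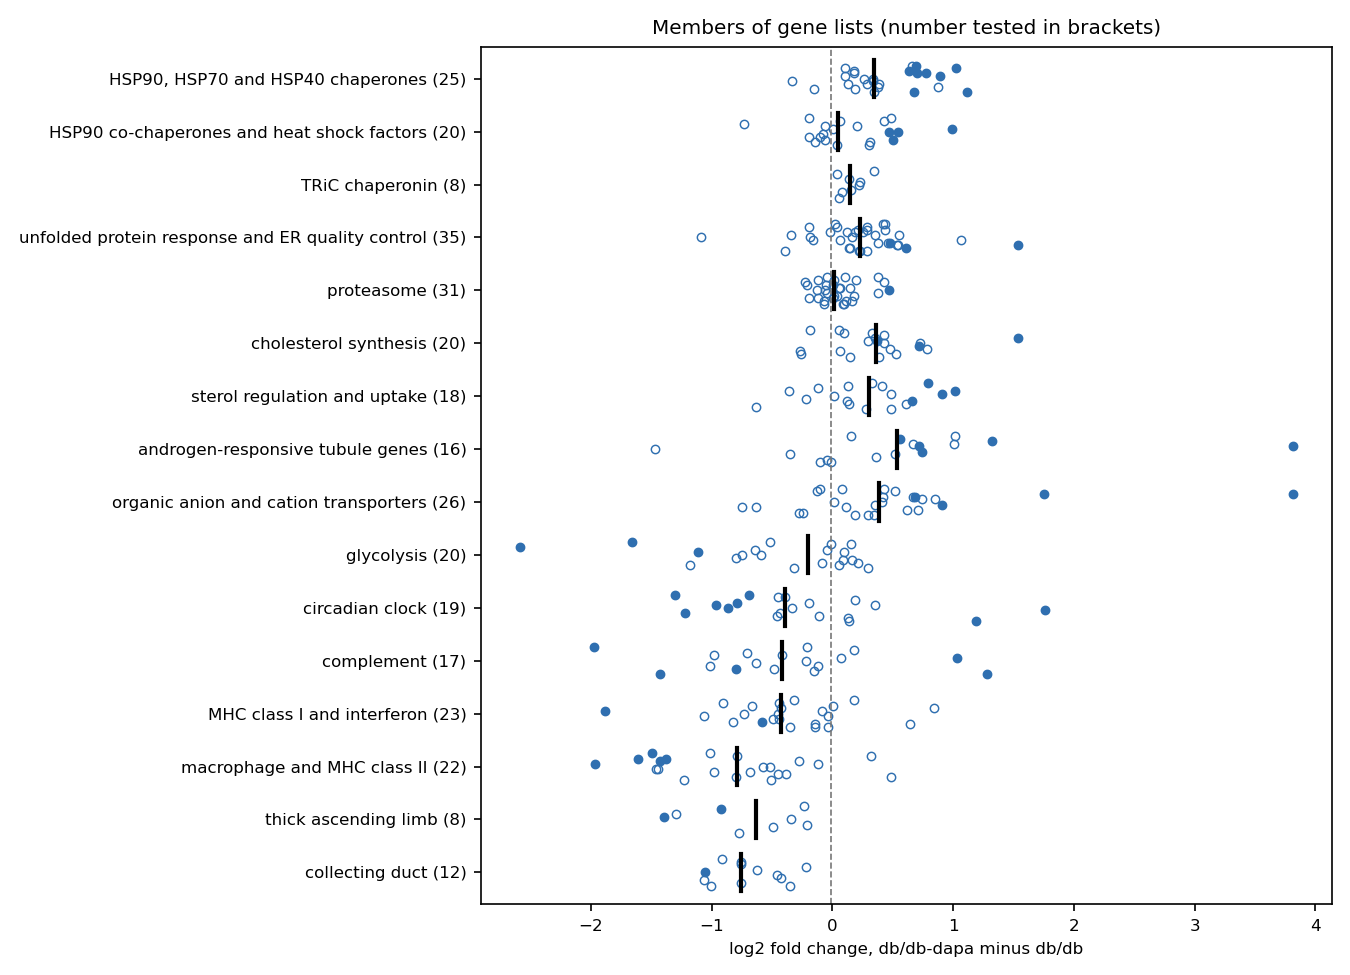
Log2 fold change (*db/db*-dapa minus *db/db*) of each tested member of 16 gene lists, with the number of members in brackets. Filled points have an unadjusted p under 0.05, bars are list medians and the dashed line is the median of all genes tested (-0.0093). Medians lie highest for androgen-responsive genes (0.54) and lowest for macrophage genes (-0.79).

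Cholesterol is made in the ER from acetyl-CoA, and its enzymes are induced together by SREBP proteins when ER sterol is low. Of 20 synthesis genes, 17 were higher in *db/db*-dapa mice and 3 lower, with a median of 0.36. In 6 the groups did not overlap, each with *db/db*-dapa mice above (4.9% of all genes). Cyp51, which removes the methyl group of lanosterol, was at 130.9, 127 and 155 CPM in *db/db*-dapa and 27.5, 44.6 and 68.2 CPM in *db/db* mice. Idi1, an isomerase of the isoprenoid steps, was at 54.1, 62.4 and 62.2 CPM in *db/db*-dapa and 32.0, 33.4 and 42.9 CPM in *db/db* mice. The *db/db*-dapa mice were close to one another in these genes, and all were above the *db/db* mice. Nsdhl, a later enzyme of sterol demethylation, was at 107, 123 and 103 CPM in *db/db*-dapa and 71.0, 101 and 85.0 CPM in *db/db* mice. Log2 fold changes were 1.54 ± 0.29 for Cyp51, 0.71 ± 0.25 for Idi1 and 0.37 ± 0.17 for Nsdhl. Sqle was at 85.7, 97.9 and 88.2 CPM in *db/db*-dapa and 32.0, 47.0 and 83.6 CPM in *db/db* mice, where *db/db* replicate 3 came within a few CPM of the *db/db*-dapa mice. Mvd (84.0, 85.2 and 68.6 CPM in *db/db*-dapa and 48.6, 63.8 and 58.2 CPM in *db/db* mice) and Sc5d (34.9, 32.6 and 37.3 CPM in *db/db*-dapa and 28.6, 24.2 and 30.8 CPM in *db/db* mice) also did not overlap. Hmgcs1, at the entry of the pathway, overlapped (301, 217 and 390.2 CPM in *db/db*-dapa and 253, 173 and 205 CPM in *db/db* mice).

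Regulators of the sterol pathway followed the enzymes in direction. Of 18 regulation and uptake genes, 14 were higher, with a median of 0.30, and 4 had an unadjusted p under 0.05 (1.92% of all genes were higher at this p). Insig1, the ER protein that retains SREBP, was at 65.6, 78.9 and 82.1 CPM in *db/db*-dapa and 43.2, 51.2 and 49.0 CPM in *db/db* mice. Srebf1, which encodes SREBP-1, was at 58.6, 76.1 and 72.6 CPM in *db/db*-dapa and 40.8, 31.2 and 47.6 CPM in *db/db* mice. Their log2 fold changes were 0.66 ± 0.16 for Insig1 and 0.79 ± 0.19 for Srebf1, and neither gene overlapped. The *db/m* mice, at 55.3, 48.2 and 48.4 CPM for Insig1 and 35.9, 31.8 and 39.3 for Srebf1, lay among or near the *db/db* mice. With each mouse left out in turn, the median of the synthesis list lay between 0.27 and 0.40, and that of the regulation list between 0.20 and 0.58. The number of synthesis genes higher at an unadjusted p under 0.05 was 2, 3 and 7 without *db/db* replicates 1, 2 and 3, and 5, 3 and 2 without *db/db*-dapa replicates 1, 2 and 3. For the regulation list it was 4, 4 and 10 without *db/db* replicates 1, 2 and 3, and 5, 3 and 4 without *db/db*-dapa replicates 1, 2 and 3. In the fit without *db/db* replicate 3, which gave 7 of 20 and 10 of 18, 11.3% of all genes were higher at this p.

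The sterol element core TCACCCCAC and the CCAAT box, which do not overlap in sequence, were searched on both strands of the same promoter windows. By gene, 14 of 15 of the synthesis list held CCAAT in any window, as did 8 of 13 of the regulation list, against 42.3% of tested genes. By window the counts were 14 of 18 and 9 of 19, against 37.4% of all. The core was in 1 of 18 and 0 of 19 windows of these lists, against 0.551% of all. Hmgcs1 carried the core, and Cyp51, Idi1 and Nsdhl are shown as examples of genes whose levels did not overlap. Mvd and Sc5d, which did not overlap either, also held CCAAT and are not shown. Capitals mark CCAAT, its reverse complement or the core.
Hmgcs1, chr13:119690161-119690370, plus strand: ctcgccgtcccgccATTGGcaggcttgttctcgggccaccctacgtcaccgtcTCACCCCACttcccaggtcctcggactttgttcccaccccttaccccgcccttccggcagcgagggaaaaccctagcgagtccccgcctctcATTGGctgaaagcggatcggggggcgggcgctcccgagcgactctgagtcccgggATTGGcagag
Cyp51, chr5:4104688-4104767, minus strand: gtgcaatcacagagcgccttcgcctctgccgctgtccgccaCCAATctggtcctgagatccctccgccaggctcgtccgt
Idi1, chr13:8885536-8885615, plus strand: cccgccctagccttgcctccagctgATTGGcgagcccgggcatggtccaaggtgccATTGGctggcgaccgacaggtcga
Nsdhl, chrX:72918401-72918570, plus strand: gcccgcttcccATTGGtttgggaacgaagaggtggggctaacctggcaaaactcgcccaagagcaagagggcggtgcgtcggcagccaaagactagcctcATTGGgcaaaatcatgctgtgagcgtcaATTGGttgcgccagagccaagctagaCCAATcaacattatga

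Of 17 lipid droplet and uptake genes, 13 were higher, with a median of 0.12. A single member had an unadjusted p under 0.05, beside 5.19% of all genes. Without *db/db* replicate 1 the list had 8 higher and 9 lower, with a median of -0.067. Some single lipid genes had small p. Acsl3, an acyl-CoA synthetase of the ER and lipid droplets, was at 27.4, 39.4 and 33.7 CPM in *db/db*-dapa and 15.6, 17.6 and 19.5 CPM in *db/db* mice. Mfsd2a, a transporter of lysophospholipids, was at 9.51, 7.75 and 9.05 CPM in *db/db*-dapa and 0.340, 1.80 and 2.78 CPM in *db/db* mice. Neither overlapped, and the log2 fold changes were 0.92 ± 0.19 for Acsl3 and 2.22 ± 0.48 for Mfsd2a. In *db/m* mice Mfsd2a was at 21.6, 41.2 and 17.1 CPM. The fatty acid receptor gene Cd36 was at 119, 61.8 and 135 CPM in *db/db*-dapa and 23.8, 26.6 and 88.2 CPM in *db/db* mice. Replicate 3 of *db/db* mice lay above *db/db*-dapa replicate 2, and the log2 fold change was 1.16 ± 0.46. Me1, which supplies NADPH for lipid synthesis and is also a target of NRF2, was at 430.4, 465 and 526 CPM in *db/db*-dapa and 228, 307 and 345 CPM in *db/db* mice, without overlap, with a log2 fold change of 0.69 ± 0.19. It was the single member of 36 NRF2 and glutathione genes to have an unadjusted p under 0.05, beside 5.19% of all genes. That list had a median of 0.13 (leaving a mouse out, lowest at 0.028 without *db/db* replicate 1 and highest at 0.27 without *db/db* replicate 2).

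Many genes of the male mouse proximal tubule depend on androgens, and this list of 16 had a median of 0.54 (leaving a mouse out, lowest at 0.40 without *db/db* replicate 1 and highest at 1.11 without *db/db* replicate 3), with 11 higher and 5 lower. Slco1a1, an organic anion transporter, was at 93.0, 14.2 and 144 CPM in *db/db*-dapa and 5.10, 3.001 and 8.97 CPM in *db/db* mice. In *db/m* mice it was at 429, 553 and 369.5 CPM. Every *db/db* mouse was thus below every other mouse, and *db/db*-dapa replicate 2 was far below the other *db/db*-dapa mice. For Slco1a1 the log2 fold change was 3.82 ± 0.70. Kap, the kidney androgen-regulated protein, was at 7229.8, 3516 and 5905 CPM in *db/db*-dapa and 1469, 2026 and 3146 CPM in *db/db* mice and at 35226, 23983 and 29020 CPM in *db/m* mice. Odc1, which starts polyamine synthesis, was at 717, 675 and 550.4 CPM in *db/db*-dapa and 385, 361 and 413 CPM in *db/db* mice. The groups did not overlap in these genes, with log2 fold changes of 1.33 ± 0.33 for Kap and 0.74 ± 0.19 for Odc1. Cyp2e1 (2034, 1672 and 2234 CPM in *db/db*-dapa and 642, 1348 and 1628 CPM in *db/db* mice) and Cyp4b1 (1999, 1409.5 and 1710.3 CPM in *db/db*-dapa and 867, 1018 and 1595 CPM in *db/db* mice) had log2 fold changes of 0.71 ± 0.29 (0.41 without *db/db* replicate 1) for Cyp2e1 and 0.56 ± 0.24 for Cyp4b1. Cyp4b1 overlapped through *db/db* replicate 3. Leaving out each mouse in turn, the number of these 16 genes higher at an unadjusted p under 0.05 was 3, 5 and 10 without *db/db* replicates 1, 2 and 3, and 4, 7 and 3 without *db/db*-dapa replicates 1, 2 and 3. For all genes the share without *db/db* replicate 3 was 11.3%. The part of the S3 marker level, which was lowest in *db/db* replicate 1, was not tested.

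In the cytochrome P450 family, 33 of 57 tested genes were higher and 23 lower, with a median of 0.16 (leaving a mouse out, lowest at 0 without *db/db*-dapa replicate 1 and highest at 0.18 without *db/db*-dapa replicate 2). Cyp4a12a, which makes the eicosanoid HETE in male kidney, was at 225, 262 and 306 CPM in *db/db*-dapa and 108, 118 and 205 CPM in *db/db* mice. Its neighbour Cyp4a12b was at 132, 149 and 158 CPM in *db/db*-dapa and 39.4, 81.8 and 122 CPM in *db/db* mice. These are near-identical copies whose reads may be divided between them, and neither overlapped. Cyp2a4 was at 268, 129 and 217 CPM in *db/db*-dapa and 21.1, 58.0 and 169.8 CPM in *db/db* mice, where *db/db* replicate 3 was above *db/db*-dapa replicate 2. The log2 fold changes were 0.87 ± 0.28 for Cyp4a12a, 0.84 ± 0.33 (0.52 without *db/db* replicate 1) for Cyp4a12b and 1.28 ± 0.56 (0.84 without *db/db* replicate 1) for Cyp2a4. At an unadjusted p under 0.05, 6 of 57 were higher with all mice, and the number was 2, 4 and 16 without *db/db* replicates 1, 2 and 3, and 4, 5 and 2 without *db/db*-dapa replicates 1, 2 and 3. Beside the 6 stand 1.92% of all genes, and beside the 16 stand 11.3%. On the lower side, the retinoic acid hydroxylase gene Cyp26b1 was at 3.12, 0.394 and 0.566 CPM in *db/db*-dapa and 12.9, 10.2 and 3.16 CPM in *db/db* mice. Cyp27a1, a mitochondrial sterol hydroxylase, was at 78.9, 68.3 and 75.2 CPM in *db/db*-dapa and 123, 95.2 and 84.0 CPM in *db/db* mice. Each was below the *db/db* range in every *db/db*-dapa mouse, with log2 fold changes of -2.67 ± 0.74 for Cyp26b1 and -0.44 ± 0.18 (-0.27 without *db/db* replicate 1) for Cyp27a1.

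Transporters of organic anions and cations on both faces of the tubule cell secrete drugs and recover urate. Of 26 tested, 20 were higher in *db/db*-dapa mice, with a median of 0.38. Slc22a28 was at 219.9, 198 and 248 CPM in *db/db*-dapa and 111, 72.6 and 170.2 CPM in *db/db* mice. Slc22a12, which encodes the urate transporter URAT1, was at 1354, 1147 and 1339.7 CPM in *db/db*-dapa and 427, 838 and 1119 CPM in *db/db* mice. Neither overlapped, although *db/db* replicate 3 came near the *db/db*-dapa mice in both. Their log2 fold changes were 0.91 ± 0.26 for Slc22a28 and 0.69 ± 0.29 (0.39 without *db/db* replicate 1) for Slc22a12. Slc22a6, the basolateral anion exchanger OAT1, was at 1576, 1735 and 2142 CPM in *db/db*-dapa and 384, 986 and 1882 CPM in *db/db* mice. It overlapped, as *db/db* replicate 3 was higher than *db/db*-dapa replicates 1 and 2. The median of this list was 0.21, 0.23 and 0.71 without *db/db* replicates 1, 2 and 3, and 0.44, 0.42 and 0.27 without *db/db*-dapa replicates 1, 2 and 3. At an unadjusted p under 0.05, 4 of 26 were higher with all mice and 2, 2 and 12 without *db/db* replicates 1, 2 and 3, and 4, 5 and 2 without *db/db*-dapa replicates 1, 2 and 3. The share of all genes higher at this p was 1.92% with all mice and 11.3% in the fit that gave 12.

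Carbonic anhydrases convert carbon dioxide and bicarbonate. Car3, a cytosolic form of low activity, had the smallest p of all genes, and was at 261, 127 and 121 CPM in *db/db*-dapa and 44.9, 47.0 and 21.1 CPM in *db/db* mice and at 104, 63.3 and 65.3 CPM in *db/m* mice. The *db/db*-dapa mice were above all other mice, replicate 1 most. For Car3 the log2 fold change was 2.19 ± 0.38. Car3 is also abundant in fat. The adipocyte markers Adipoq, Cfd, Retn, Lep, Cidec and Ucp1 were at 0 counts in all 6 mice. Fabp4 was at 8.09, 1.18 and 1.02 CPM in *db/db*-dapa and 11.2, 22.8 and 2.02 CPM in *db/db* mice. Of the 10 genes of the adipocyte list, 3 were tested, 2 of them higher and 1 lower. The most abundant of these was Cyp2e1, given above. The part of fat in the level of Car3 was not tested. Car2, the main cytosolic form of the tubule, was at 895, 990.3 and 857 CPM in *db/db*-dapa and 843, 854 and 568 CPM in *db/db* mice, without overlap. The membrane-bound Car15 was at 80.1, 51.3 and 53.2 CPM in *db/db*-dapa and 204, 127 and 53.9 CPM in *db/db* mice. Here *db/db* replicate 3 lay among the *db/db*-dapa mice. Car5b, a mitochondrial form, was at 89.4, 135 and 119 CPM in *db/db*-dapa and 61.2, 83.6 and 98.7 CPM in *db/db* mice, and *db/db* replicate 3 was above *db/db*-dapa replicate 1. For Car15 the log2 fold change was -1.05 ± 0.43 (-0.55 without *db/db* replicate 1), and for Car5b 0.49 ± 0.22. Of the 13 tested, 7 were higher and 6 lower.

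Among genes that respond to glucose, Txnip, which is induced by carbohydrate through ChREBP and restrains glucose uptake, was at 175, 166 and 209 CPM in *db/db*-dapa and 238, 313 and 319 CPM in *db/db* mice. The *db/m* mice were at 169.8, 121 and 157 CPM. Each *db/db*-dapa mouse was below each *db/db* mouse, and the log2 fold change was -0.66 ± 0.19. Mlxipl, which encodes ChREBP, was at 319, 262 and 299.8 CPM in *db/db*-dapa and 339.6, 389.6 and 398 CPM in *db/db* mice, also without overlap. The list of 21 glucose and insulin sensing genes had 11 higher and 10 lower, with a median of 0.04. Leaving a mouse out, the median was lowest at -0.089 without *db/db*-dapa replicate 3 and highest at 0.10 without *db/db*-dapa replicate 1. Scaling to library totals turned it to -0.026, against -0.073 over all genes in that fit. Stbd1, a glycogen-binding protein, was at 18.2, 12.5 and 11.3 CPM in *db/db*-dapa and 5.44, 3.001 and 5.56 CPM in *db/db* mice. No *db/db* mouse reached the lowest *db/db*-dapa mouse, and the log2 fold change was 1.58 ± 0.33. Slc2a4, the insulin-responsive transporter GLUT4, was at 5.96, 4.07 and 4.64 CPM in *db/db*-dapa and 14.96, 9.80 and 6.82 CPM in *db/db* mice, with a log2 fold change of -1.07 ± 0.44. The sodium-coupled transporter gene Slc5a1, which encodes SGLT1, was at 133, 131.2 and 147 CPM in *db/db*-dapa and 28.9, 77.4 and 171 CPM in *db/db* mice. Slc2a2, which encodes the basolateral exit transporter GLUT2, was at 267, 349 and 372 CPM in *db/db*-dapa and 328, 274 and 403 CPM in *db/db* mice. Both overlapped, and in Slc5a1 the *db/db* mice ranged across the *db/db*-dapa values. In gluconeogenesis 7 genes were higher and 7 lower, and Pck1 overlapped (5402, 9924 and 8245 CPM in *db/db*-dapa and 4595, 10219 and 5105 CPM in *db/db* mice).

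Of 20 glycolysis genes, 7 were higher and 13 lower, with a median of -0.20 (leaving a mouse out, lowest at -0.28 without *db/db*-dapa replicate 1 and highest at -0.11 without *db/db*-dapa replicate 3). Eno3, the muscle enolase, was at 6.67, 4.86 and 8.26 CPM in *db/db*-dapa and 17.3, 16.2 and 9.85 CPM in *db/db* mice. Eno2, the neuronal enolase, was at 0.568, 0.656 and 1.02 CPM in *db/db*-dapa and 4.08, 2.201 and 1.39 CPM in *db/db* mice. Both had lower values in each *db/db*-dapa mouse and were at a low level. Log2 fold changes were -1.11 ± 0.37 for Eno3 and -1.66 ± 0.59 for Eno2. In the other direction, Ldha (886, 852 and 778 CPM in *db/db*-dapa and 583, 704 and 762 CPM in *db/db* mice) and Pgk1 (774, 756 and 731 CPM in *db/db*-dapa and 623, 631 and 695 CPM in *db/db* mice) were higher without overlap. Pdk3, a kinase that inhibits pyruvate dehydrogenase, was at 29.7, 29.9 and 28.7 CPM in *db/db*-dapa and 18.7, 18.2 and 21.6 CPM in *db/db* mice. Pdk1 was at 32.4, 38.7 and 36.0 CPM in *db/db*-dapa and 41.1, 48.4 and 55.1 CPM in *db/db* mice. These kinase genes thus differed in opposite directions, each without overlap, with log2 fold changes of 0.59 ± 0.16 for Pdk3 and -0.44 ± 0.20 for Pdk1. They were the members with an unadjusted p under 0.05 among 24 hypoxia targets, beside 5.19% of all genes. Of these targets 15 were higher, with a median of 0.16 (leaving a mouse out, lowest at 0.078 without *db/db* replicate 1 and highest at 0.22 without *db/db* replicate 3). Vegfa overlapped (322, 283 and 355 CPM in *db/db*-dapa and 347, 241 and 399.8 CPM in *db/db* mice). In ketone body metabolism, Slc16a1, which encodes the monocarboxylate transporter MCT1, was at 97.4, 135 and 119.8 CPM in *db/db*-dapa and 43.2, 74.2 and 80.8 CPM in *db/db* mice, without overlap, with a log2 fold change of 0.82 ± 0.28.

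The circadian clock list had 6 genes higher and 13 lower of 19, with a median of -0.39. The period genes repress the CLOCK and BMAL1 pair. Per3 was at 18.5, 22.6 and 24.5 CPM in *db/db*-dapa and 45.5, 32.6 and 49.5 CPM in *db/db* mice. Per1 was at 62.9, 42.3 and 63.0 CPM in *db/db*-dapa and 128, 199 and 64.8 CPM in *db/db* mice. Per2 was at 66.4, 72.6 and 63.7 CPM in *db/db*-dapa and 99.3, 143 and 83.7 CPM in *db/db* mice. In all 3 period genes each *db/db*-dapa mouse was below each *db/db* mouse, though in Per1 the nearest mice differed by under 2 CPM. Their log2 fold changes were -0.96 ± 0.25 for Per3, -1.22 ± 0.36 (-0.77 without *db/db* replicate 2) for Per1 and -0.69 ± 0.23 (-0.43 without *db/db* replicate 2) for Per2. Dbp, an output gene of the clock, was at 71.8, 40.2 and 36.7 CPM in *db/db*-dapa and 107, 84.8 and 79.8 CPM in *db/db* mice. Bhlhe40, a repressor, was at 148, 133 and 97.6 CPM in *db/db*-dapa and 166, 264 and 225 CPM in *db/db* mice. These did not overlap either, with log2 fold changes of -0.87 ± 0.26 for Dbp and -0.79 ± 0.24 for Bhlhe40. Ciart was at 17.2, 7.48 and 10.5 CPM in *db/db*-dapa and 22.1, 51.4 and 13.4 CPM in *db/db* mice. Its groups overlapped, and the log2 fold change was -1.30 ± 0.46 (-0.57 without *db/db* replicate 2).

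In 2 genes of the clock list with an unadjusted p under 0.05 the fitted level was higher, beside 1.92% of all genes. The number of such higher genes was 0, 2 and 3 without *db/db* replicates 1, 2 and 3, and 2, 0 and 0 without *db/db*-dapa replicates 1, 2 and 3. Arntl, which encodes BMAL1, was at 7.24, 12.998 and 12.4 CPM in *db/db*-dapa and 1.36, 7.80 and 4.67 CPM in *db/db* mice. Npas2, which can replace CLOCK, was at 3.97, 11.03 and 7.92 CPM in *db/db*-dapa and 0.680, 0.8003 and 4.55 CPM in *db/db* mice. Both overlapped narrowly, and the *db/db* mice spread over a wide range. For Arntl the log2 fold change was 1.19 ± 0.46, and for Npas2 1.76 ± 0.74. Rbm3, a cold-inducible RNA-binding protein, was at 103, 95.4 and 127 CPM in *db/db*-dapa and 161, 217 and 148 CPM in *db/db* mice, without overlap, with a log2 fold change of -0.69 ± 0.19. With each mouse left out, the number of clock genes lower at an unadjusted p under 0.05 was 7, 4 and 6 without *db/db* replicates 1, 2 and 3, and 6, 5 and 6 without *db/db*-dapa replicates 1, 2 and 3. It was 6 of 19 with all mice, beside 3.27% of all genes, and for all genes the share was 1.29% with *db/db* replicate 1 left out and 9.08% with replicate 3 left out. The median was -0.37, -0.14 and -0.48 without *db/db* replicates 1, 2 and 3, and -0.24, -0.42 and -0.35 without *db/db*-dapa replicates 1, 2 and 3.

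The naming rule, which here took only genes without overlap between the groups, also gave genes outside these functions. Their lack of overlap was thus set by that choice. Htra1, a secreted protease, was at 254, 218 and 183 CPM in *db/db*-dapa and 111, 94.6 and 136 CPM in *db/db* mice. Nt5e, which encodes the ecto-enzyme CD73 that makes adenosine, was at 70.6, 83.8 and 79.8 CPM in *db/db*-dapa and 19.7, 30.0 and 40.0 CPM in *db/db* mice. Gab2, an adaptor of receptor tyrosine kinases, was at 25.6, 29.1 and 21.4 CPM in *db/db*-dapa and 10.5, 11.8 and 16.9 CPM in *db/db* mice. None of these overlapped, and all *db/db*-dapa mice were above the *db/db* mice. Log2 fold changes were 0.93 ± 0.21 for Htra1, 1.36 ± 0.34 for Nt5e and 0.93 ± 0.23 for Gab2. On the lower side, Npl, which splits sialic acid, was at 45.3, 43.7 and 42.6 CPM in *db/db*-dapa and 98.9, 97.4 and 72.1 CPM in *db/db* mice. In *db/m* mice Npl was at 42.2, 64.2 and 33.8 CPM. The *db/db*-dapa mice differed from each other by under 3 CPM. Pear1 was at 17.2, 13.7 and 10.9 CPM in *db/db*-dapa and 35.0, 28.8 and 23.9 CPM in *db/db* mice. The long noncoding RNA gene Firre was at 70.0, 64.2 and 85.0 CPM in *db/db*-dapa and 133, 118 and 102 CPM in *db/db* mice. Appl2, an endosomal adaptor, was at 48.0, 46.9 and 64.4 CPM in *db/db*-dapa and 107, 93.4 and 73.5 CPM in *db/db* mice. In these genes the *db/db* mice were above all *db/db*-dapa mice. The log2 fold changes were -1.02 ± 0.23 for Npl, -1.06 ± 0.25 for Pear1, -0.69 ± 0.17 for Firre and -0.78 ± 0.19 for Appl2. Abcc6, a transporter of the basolateral membrane, was at 32.4, 25.9 and 29.0 CPM in *db/db*-dapa and 39.8, 43.2 and 49.6 CPM in *db/db* mice, with a log2 fold change of -0.61 ± 0.17 and no overlap. The remaining genes that the same rule gives were 1700028P14Rik (-1.77 ± 0.42), Dqx1 (-1.02 ± 0.27), Cd200 (-1.88 ± 0.51), Eln (-2.27 ± 0.63, -1.46 without *db/db* replicate 1), Nrbp2 (-1.47 ± 0.41, -0.92 without *db/db* replicate 1) and Adam11 (-1.52 ± 0.43, -0.76 without *db/db* replicate 1), given here as log2 fold changes. Among these, Nrbp2 (54.7, 29.6 and 15.03 CPM) and Adam11 (69.0, 25.8 and 17.3 CPM) varied several-fold among *db/db* mice.

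Of iron, endocytosis and amino acid genes, 3 of 15, 2 of 17 and 2 of 24 had an unadjusted p under 0.05 in the fit of all mice, against 5.19% of all genes. Tfrc, the transferrin receptor, was at 138, 123 and 139 CPM in *db/db*-dapa and 65.3, 91.2 and 104 CPM in *db/db* mice. Ehd1, which recycles endocytosed receptors, was at 195, 253 and 226 CPM in *db/db*-dapa and 148, 166 and 187 CPM in *db/db* mice. Slc38a3, a glutamine transporter, was at 123, 160.2 and 206 CPM in *db/db*-dapa and 9.86, 60.8 and 93.3 CPM in *db/db* mice. No overlap was seen in these, and *db/db* replicate 3 was the nearest to the *db/db*-dapa mice in each. Log2 fold changes were 0.61 ± 0.22 for Tfrc, 0.43 ± 0.17 for Ehd1 and 1.55 ± 0.54 for Slc38a3. Slc7a9, the light chain of the cystine transporter, was at 187, 183 and 206 CPM in *db/db*-dapa and 296, 234 and 219 CPM in *db/db* mice, lower in each *db/db*-dapa mouse, with a log2 fold change of -0.37 ± 0.17 (-0.24 without *db/db* replicate 1). The metallothionein gene Mt1 was at 79.8, 56.1 and 43.7 CPM in *db/db*-dapa and 149.6, 271 and 43.2 CPM in *db/db* mice. It overlapped, and *db/db* replicate 3 was the lowest mouse of the 6. For Mt1 the log2 fold change was -1.37 ± 0.53 (-0.67 without *db/db* replicate 2). The medians were 0.0002 for the iron list (-0.059 under scaling to library totals), 0.12 for endocytosis and 0.17 for amino acid transport. Under that scaling the median of all genes was -0.073. With a mouse left out, the iron list ranged from -0.27 without *db/db*-dapa replicate 1 to 0.12 without *db/db*-dapa replicate 2. For endocytosis the median was 0.058, 0.026 and 0.22 without *db/db* replicates 1, 2 and 3, and 0.16, 0.082 and 0.045 without *db/db*-dapa replicates 1, 2 and 3. That of amino acid transport was 0.15, 0.064 and 0.42 without *db/db* replicates 1, 2 and 3, and 0.34, 0.17 and 0.15 without *db/db*-dapa replicates 1, 2 and 3. At an unadjusted p under 0.05, 6 of 17 endocytosis genes and 10 of 24 amino acid genes were higher without *db/db* replicate 3, beside 11.3% of all genes, and without *db/db* replicate 2 each list had 1.

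Among markers of tubular injury the direction depended on the mice included. Of 23 tested, 10 were higher and 13 lower, with a median of -0.027 (leaving a mouse out, lowest at -0.46 without *db/db*-dapa replicate 1 and highest at 0.18 without *db/db* replicate 1). Krt20 was the single member with an unadjusted p under 0.05, beside 5.19% of all genes. It was at a few CPM (2.41, 5.78 and 0.566 CPM in *db/db*-dapa and 1.02, 0 and 0.505 CPM in *db/db* mice), with a log2 fold change of 2.63 ± 1.11 (1.65 without *db/db*-dapa replicate 2) and overlap. Spp1 was at 1307, 1354 and 949.9 CPM in *db/db*-dapa and 1836, 1416 and 773 CPM in *db/db* mice. Among p53 and cell cycle genes, Ccnd1, which encodes cyclin D1, was at 318, 316 and 405 CPM in *db/db*-dapa and 646, 379 and 660.2 CPM in *db/db* mice. It overlapped through *db/db* replicate 2, and the log2 fold change was -0.70 ± 0.24. The mitotic genes Top2a (2.697, 6.56 and 4.98 CPM in *db/db*-dapa and 2.04, 1.60 and 2.27 CPM in *db/db* mice) and Ccnb1 (1.42, 2.63 and 2.60 CPM in *db/db*-dapa and 1.02, 1.0004 and 0.253 CPM in *db/db* mice) were at a few CPM and higher in each *db/db*-dapa mouse, with log2 fold changes of 1.25 ± 0.53 for Top2a and 1.66 ± 0.68 for Ccnb1. Plk3 was at 90.997, 57.2 and 54.1 CPM in *db/db*-dapa and 146, 384 and 41.6 CPM in *db/db* mice, highest in *db/db* replicate 2, with a log2 fold change of -1.50 ± 0.60 (-0.46 without *db/db* replicate 2). Immediate-early genes were highest in that same mouse, with summed levels of 8996, 6817 and 5107 CPM in *db/db*-dapa and 4098, 11253 and 6066 CPM in *db/db* mice. Klf10 (32.1, 27.2 and 26.8 CPM in *db/db*-dapa and 38.4, 70.4 and 46.6 CPM in *db/db* mice) was the member of this list with an unadjusted p under 0.05, beside 5.19% of all genes. Its log2 fold change was -0.86 ± 0.35.

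Complement genes had 13 of 17 members lower and a median of -0.41 (leaving a mouse out, lowest at -0.70 without *db/db*-dapa replicate 1 and highest at -0.20 without *db/db*-dapa replicate 2). At an unadjusted p under 0.05, 3 were lower with all mice and 1, 2 and 5 without *db/db* replicates 1, 2 and 3, and 6, 2 and 1 without *db/db*-dapa replicates 1, 2 and 3. Of all genes, 3.27% were lower at this p with all mice, 9.08% without *db/db* replicate 3 and 4.89% without *db/db*-dapa replicate 1. C2, a protease of the classical pathway, was at 47.3, 48.8 and 39.5 CPM in *db/db*-dapa and 91.4, 75.8 and 69.6 CPM in *db/db* mice. No *db/db*-dapa mouse reached the *db/db* range, and the log2 fold change was -0.80 ± 0.18. Cfi, which inactivates C3b, was at 5.54, 4.99 and 4.19 CPM in *db/db*-dapa and 2.72, 2.40 and 2.15 CPM in *db/db* mice. It was higher in each *db/db*-dapa mouse, with a log2 fold change of 1.03 ± 0.33. C1qa, a macrophage gene, was at 7.81, 4.99 and 1.70 CPM in *db/db*-dapa and 20.4, 16.0 and 3.41 CPM in *db/db* mice. It overlapped and was lowest in replicate 3 of either group, and the log2 fold change was -1.43 ± 0.62. MHC class I and interferon genes were lower in 19 of 23 members, with a median of -0.42 (leaving a mouse out, lowest at -0.70 without *db/db*-dapa replicate 1 and highest at -0.16 without *db/db*-dapa replicate 3). The number lower at an unadjusted p under 0.05 was 2 with all mice and 0, 1 and 8 without *db/db* replicates 1, 2 and 3, and 4, 0 and 0 without *db/db*-dapa replicates 1, 2 and 3. Beside the 2, 8 and 4 members stand 3.27%, 9.08% and 4.89% of all genes in the same fits. H2-K1 was at 24.3, 16.4 and 12.7 CPM in *db/db*-dapa and 158, 29.6 and 13.3 CPM in *db/db* mice, where *db/db* replicate 1 alone was high, with a log2 fold change of -1.88 ± 0.73 (-0.26 without *db/db* replicate 1). B2m was at 303, 172 and 156 CPM in *db/db*-dapa and 333, 317 and 156 CPM in *db/db* mice, and its groups overlapped. Of 18 chemokine and NF-kB genes 12 were lower, among them Cxcl2 (4.12, 2.10 and 2.60 CPM in *db/db*-dapa and 7.48, 12.6 and 3.92 CPM in *db/db* mice), which overlapped, with a log2 fold change of -1.43 ± 0.58 (-0.91 without *db/db* replicate 2). The direction of this list turned when *db/db* replicate 2 was left out, with 13 higher, 5 lower and a median of 0.18 against -0.21.

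Macrophage genes moved with these lists. Of 22 macrophage and MHC class II genes, 20 were lower in *db/db*-dapa mice, with a median of -0.79 (leaving a mouse out, lowest at -1.49 without *db/db*-dapa replicate 1 and highest at -0.50 without *db/db*-dapa replicate 3), and 5 had an unadjusted p under 0.05 (3.27% of all genes were lower at this p). The number of such members was 1, 2 and 11 without *db/db* replicates 1, 2 and 3, and 11, 0 and 1 without *db/db*-dapa replicates 1, 2 and 3. In the fits with 11, 9.08% of all genes were lower at this p in the absence of *db/db* replicate 3, and 4.89% in that of *db/db*-dapa replicate 1. Their summed level was 524, 277 and 161 CPM in *db/db*-dapa and 677, 571 and 207 CPM in *db/db* mice, and the most abundant per kilobase was Cd74. Ptprc, the pan-leukocyte marker, was at 8.38, 4.73 and 3.05 CPM in *db/db*-dapa and 17.0, 20.0 and 5.43 CPM in *db/db* mice. The values of *db/db* replicate 3 and *db/db*-dapa replicates 2 and 3 were low, and those of *db/db* replicates 1 and 2 and *db/db*-dapa replicate 1 were higher. Itgam was at 2.13, 0.788 and 1.24 CPM in *db/db*-dapa and 4.08, 5.002 and 2.78 CPM in *db/db* mice, and Cx3cr1 was at 1.42, 0.788 and 0.339 CPM in *db/db*-dapa and 4.08, 1.80 and 2.15 CPM in *db/db* mice. These 2 genes did not overlap. For Ptprc the log2 fold change was -1.38 ± 0.50, for Itgam -1.49 ± 0.53 and for Cx3cr1 -1.61 ± 0.59. In bulk RNA, fewer cells of a type and less RNA per cell cannot be told apart, and the part of macrophage RNA in the complement and MHC values was not tested.

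Markers of other cells followed a similar order of mice. The summed level of 12 endothelial genes was 355, 94.0 and 73.9 CPM in *db/db*-dapa and 289, 341 and 113 CPM in *db/db* mice, and all 12 were lower in *db/db*-dapa mice by the fit, with a median of -0.43. This median was -0.22, -0.13 and -0.84 without *db/db* replicates 1, 2 and 3, and -1.55, -0.11 and -0.0058 without *db/db*-dapa replicates 1, 2 and 3, and 6 of 12 were higher without *db/db*-dapa replicate 3. Erythrocyte genes summed to 406, 74.3 and 44.0 CPM in *db/db*-dapa and 168, 1874 and 139 CPM in *db/db* mice, highest in *db/db* replicate 2 and led by the near-identical Hba-a1 and Hba-a2. Neutrophil genes summed to 13.2, 4.07 and 3.96 CPM in *db/db*-dapa and 9.86, 65.0 and 1.01 CPM in *db/db* mice, led per kilobase by S100a9. *db/db* replicate 2 was thus the highest mouse for both blood lists. Podocyte genes differed in the fitted direction, since all 8 were higher by the fit, with a median of 0.86, through a single mouse. Under scaling to library totals 7 of the 8 were higher. As in the endothelial list, *db/db*-dapa replicate 1 was the highest mouse. The summed level of the list was 294, 43.3 and 28.3 CPM in *db/db*-dapa and 96.9, 86.2 and 48.8 CPM in *db/db* mice. Without *db/db*-dapa replicate 1 the median of the podocyte list was -0.81, and without *db/db* replicate 2 that of the erythrocyte list was 0.36 and that of neutrophils 0.95. Lymphocyte genes summed to 3.97, 1.05 and 1.02 CPM in *db/db*-dapa and 5.10, 9.60 and 1.14 CPM in *db/db* mice.

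**Figure D3:**
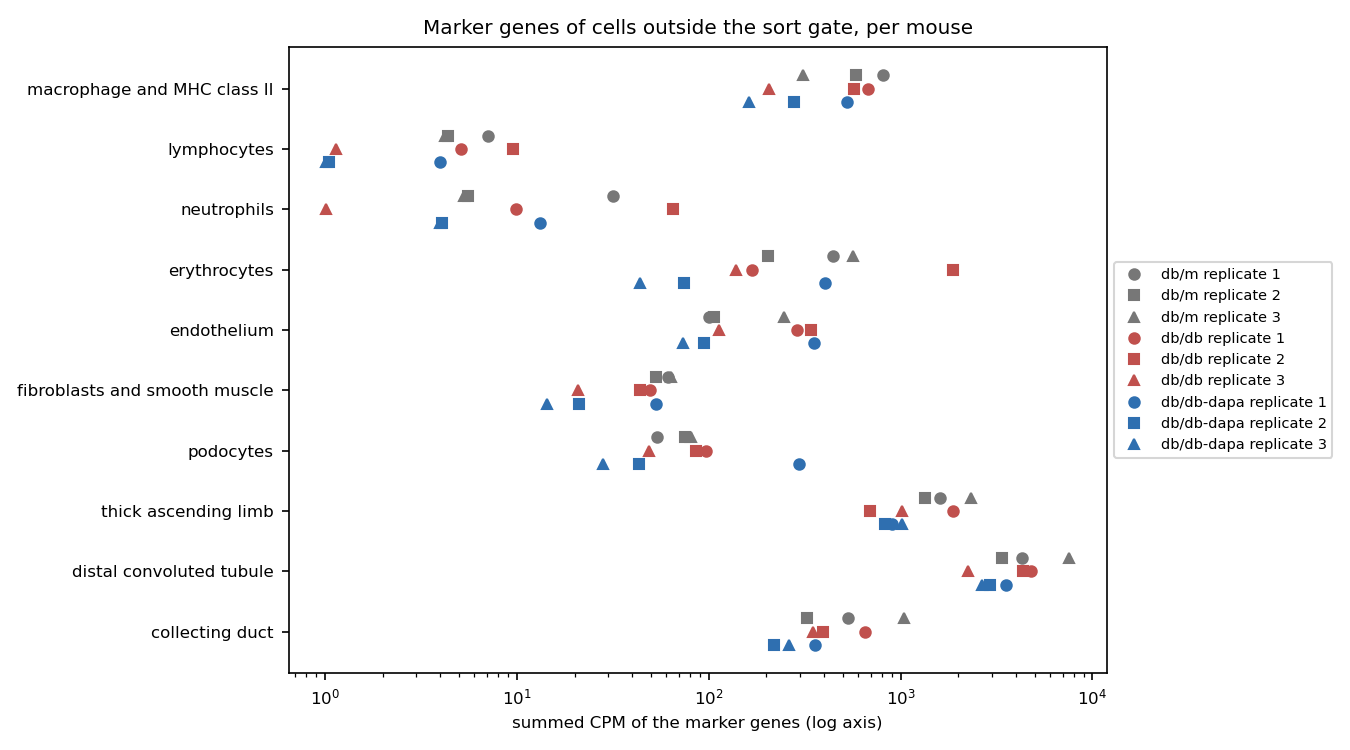
Summed CPM (log axis) of marker genes of 10 kinds of cells outside the sort gate, with a color for each group and a symbol for each replicate. *db/db* replicate 2 is highest for erythrocyte genes (1874 CPM) and *db/db*-dapa replicate 1 for podocyte genes (294 CPM).

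Segments of the nephron beyond the proximal tubule were also represented. All 8 genes of the thick ascending limb were lower in *db/db*-dapa mice by the fit, as were all 7 of the distal convoluted tubule and all 12 of the collecting duct. The medians were -0.63, -0.60 and -0.75. Without *db/db* replicate 1 they were -0.10, -0.28 and -0.40, and 3 of 8, 1 of 7 and 0 of 12 genes were higher. Summed levels for the collecting duct were 358, 219 and 262 CPM in *db/db*-dapa and 655, 394 and 349.8 CPM in *db/db* mice, led per kilobase by Aqp2. Aqp2 was at 93.1, 40.8 and 66.3 CPM in *db/db*-dapa and 204, 115 and 85.9 CPM in *db/db* mice. For the thick ascending limb they were 907, 832 and 1020.4 CPM in *db/db*-dapa and 1867, 689.9 and 1021 CPM in *db/db* mice, led per kilobase by Umod (344, 231 and 329.6 CPM in *db/db*-dapa and 661, 195 and 294 CPM in *db/db* mice). In both of these lists *db/db* replicate 1 was the highest mouse, and the other *db/db* mice were close to or among the *db/db*-dapa mice. Sostdc1, of the thick ascending limb list, was at 19.02, 13.8 and 15.6 CPM in *db/db*-dapa and 46.9, 24.4 and 22.0 CPM in *db/db* mice and did not overlap, with a log2 fold change of -0.92 ± 0.36 (-0.52 without *db/db* replicate 1). Hsd11b2, of the collecting duct list, was at 52.1, 28.2 and 34.8 CPM in *db/db*-dapa and 121, 74.6 and 46.0 CPM in *db/db* mice and overlapped, with a log2 fold change of -1.06 ± 0.48 (-0.65 without *db/db* replicate 1). The part of these cells in the lower values of other genes was not tested.

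Further list members with an unadjusted p under 0.05 were mostly at few counts. Gla, a lysosomal galactosidase, was at 17.5, 21.8 and 17.1 CPM in *db/db*-dapa and 8.84, 14.8 and 12.9 CPM in *db/db* mice. Steap3, an iron reductase, was at 3.55, 1.05 and 1.02 CPM in *db/db*-dapa and 0.680, 0.4002 and 0.379 CPM in *db/db* mice. Neither overlapped, and *db/db*-dapa mice were above, with log2 fold changes of 0.61 ± 0.27 for Gla and 1.98 ± 0.73 (1.16 without *db/db*-dapa replicate 1) for Steap3. Slc22a27 (1.75 ± 0.74) was higher without overlap, whereas Cd55 (1.28 ± 0.54) overlapped. Ccl5 (-2.68 ± 0.93) and Cyp2j8 (-1.73 ± 0.77, -0.91 without *db/db* replicate 2) were lower in each *db/db*-dapa mouse. H2-Q4 (-0.58 ± 0.26), Hk3 (-2.59 ± 1.13), Itgax (-1.96 ± 0.80, -0.98 without *db/db* replicate 1), Ppp1r1a (-1.40 ± 0.63, -0.71 without *db/db* replicate 1) and Tgfbi (-1.30 ± 0.57, -0.57 without *db/db* replicate 1) had a lower fitted level and overlapped, and the values in brackets are log2 fold changes.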

How the data were processed

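Poly(A) RNA of sorted proximal tubular cells was sequenced as single-end reads. The deposited table holds estimated counts for 24421 genes in 9 mice. Its name speaks of FPKM, but about 90.9% of the values are whole numbers and the columns have different sums, and the program that made the counts is not stated. The submitters' processing notes name TopHat2 2.0.13, Bowtie2 2.2.3, SAMtools 0.1.19 and Cufflinks 2.2.1 with the mm10 genome. In the table, 27 gene names read as dates, 2 are listed more than once, 0 lack a name, and 0 sample columns were unused. Counts were rounded, scaled by trimmed mean of M values, and tested with edgeR 4.0.16 (quasi-likelihood test, 9 mice in 3 groups) in R 4.3.3, and Benjamini-Hochberg adjustment ran over 15583 genes. CPM are on scaled libraries, and SE follows the sign ±. The scripts were tested on simulated data.

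Genes were named by rule. The first were the 15 with the smallest p in each direction, at a mean of 5 CPM or more over the 6 mice. Only genes without overlap between the groups could be among these. Members of the lists with an unadjusted p under 0.05 were also named, as were further members picked for their role or for lack of overlap. A few genes that the rule gives are not reported here. Members and lists were chosen with earlier results of these data known. Alternatives were DESeq2 1.42.0, limma 3.58.1, other scalings and filters, and each mouse left out. Promoter windows and coordinates are from RefSeq and GENCODE annotation of GRCm38.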

Additional observations from a re-analysis of the deposited data

How the results depend on the processing

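The number of genes called was 0 in the fit of all 9 mice by edgeR's quasi-likelihood test, 13 by DESeq2 and 449 by limma with quality weights. The likelihood ratio test and the exact test of edgeR, which were added after seeing the data, called 6 each. Leaving out each of the 6 mice in turn gave between 0 and 272 called genes, with 272 without *db/db* replicate 3 and 1 without *db/db*-dapa replicate 2. The number with an unadjusted p under 0.05 was 809, between 369 and 3178 with a mouse left out, and 3756 with quality weights. It was lowest without *db/db*-dapa replicate 2 and highest without *db/db* replicate 3.

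With replicate number as a replicate block, 0 genes were called and 750 had an unadjusted p under 0.05. The labels do not say whether replicate numbers pair the mice. Correlations of deviations from the group means were 0.402, -0.159 and 0.563 between mice of the same number. Between mice of different numbers they lay from -0.610 to 0.359. These few values cannot settle whether the mice are paired.

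For the 105 genes with a printed log2 fold change, 0 of 2098 values in the 20 other settings reversed in sign. With a mouse left out, 32 became over 1.5 times smaller and 11 over 1.5 times larger, and the smaller values are printed beside the genes. Without *db/db* replicate 3 the larger values were 3.33 for Npas2, 2.64 for Slc22a27, 2.35 for Cyp2a4, 2.17 for Cd55 and 2.07 for Cd36. In the same fit they were 1.27 for Cyp4a12b, 0.94 for Sel1l and 0.87 for Cyp4b1. Without *db/db*-dapa replicate 1 they were -4.07 for Cyp26b1 and -3.20 for Itgax, and without *db/db*-dapa replicate 3 -4.445 for Ccl5. Most of these genes were named because of a small p, so the 0 reversals are partly a result of that choice. Among 980 list medians in other settings, 55 shifted by at least the standard deviation of that list between mice, and 70 had the other sign. Without *db/db* replicate 3 the median of the co-chaperone list was -0.048 and that of the proteasome -0.034. The S3 markers had a median of 1.21 without that mouse and 0.14 without *db/db* replicate 1.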
